A study of Mus musculus with 14 samples.

Results

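Chemokines are small secreted proteins that steer the movement of leukocytes, and their receptors are G protein-coupled receptors on the surface of the cells that respond. In bone marrow the system sets which cells stay and which leave: stromal cells hold blood-forming cells and B cell precursors through one ligand and receptor pair, monocytes leave the marrow through Ccr2, and neutrophils leave through the receptors that bind the Cxcl1 group. Atypical receptors bind chemokines without signalling through G proteins and clear them or carry them across cells. The members described here are the genes of the deposited count matrix whose symbols begin with Ccl, Cxcl, Cx3cl, Xcl, Ccr, Cxcr, Cx3cr, Xcr or Ackr followed by a digit, with Cxcl12 and Cxcr2 set aside. The pattern matched 54 of 23441 genes and left 52 members, namely 30 ligands, 18 receptors and 4 atypical receptors, and the pattern used no measured value beyond a gene's presence in that matrix.

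RNA was sequenced from plugs of distal tibial marrow, the site of constitutive bone marrow adipose tissue, of male mice aged 24 weeks on a C57BL6/SJL background. In BMAd-Pnpla2-/- mice the lipase gene Pnpla2 was deleted with a Cre made only where Osterix-driven FLPo recombinase had switched on a Cre cassette in the Adipoq locus, which labels marrow adipocytes and also some marrow stromal cells. BMAd-Pnpla2+/+ mice were littermates with intact Pnpla2. The paper states that mice of both genotypes carried the FLPo and the Cre cassette. It also reports that the Cre cassette lowered adiponectin, the protein of Adipoq. Mice of each genotype were fed ad libitum (AL) or received a diet reduced by 30% (caloric restriction, CR) for 6 weeks. There were 4 BMAd-Pnpla2+/+ AL, 4 BMAd-Pnpla2+/+ CR, 3 BMAd-Pnpla2-/- AL and 3 BMAd-Pnpla2-/- CR samples, and each sample was RNA pooled from 2 mice. The design asks how CR changes gene expression in each genotype and how the lack of Pnpla2 in marrow adipocytes changes it on each diet.

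The 3 BMAd-Pnpla2-/- CR libraries stood apart from the rest in kind. Between 50.1% and 50.5% of their gene counts lay on the first strand, against 4.30% to 4.62% in the other 11 libraries, so these 3 held reads of either strand. Counts made without regard to strand were therefore used for every sample. Library kind and the BMAd-Pnpla2-/- CR group cannot be told apart, and every comparison that includes the group carries this limit. Gene counts per sample ranged from 18898324 to 21665553. Because the samples were bulk marrow, fewer cells of a type and less RNA per cell cannot be told apart. Pnpla2 itself stood at 216 ± 57.6 counts per 1000000 gene counts (CPM; mean ± SD, n = 4) in BMAd-Pnpla2+/+ AL, 828 ± 237 (n = 4) in BMAd-Pnpla2+/+ CR, 146 ± 21.4 (n = 3) in BMAd-Pnpla2-/- AL and 221 ± 44.8 (n = 3) in BMAd-Pnpla2-/- CR. The groups of the 2 genotypes did not overlap on either diet, and under CR the difference was called (log2 fold change -1.90, SE 0.26, adjusted p 0.0386). Under AL it was not called (log2 fold change -0.57, SE 0.25, adjusted p 1).

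Cxcl14, a chemokine of stromal and epithelial tissues, had the highest level of the 52 members, at 405 CPM per kilobase of exon on average over the 14 samples (range 259 to 680). Cxcr4, the receptor that retains blood-forming cells in the marrow, followed at 146 CPM per kilobase (96 to 173). Ccl6, a myeloid chemokine of rodents, came next at 110.5 CPM per kilobase (69.8 to 156). The ranges of Cxcr4 and Ccl6 overlapped, so their order is not resolved, whereas the lowest Cxcl14 sample lay above the highest of either. A wide step then led to Ccl5 (30.4), Ccr1 (27.9), Ccl9 (21.05), Ccr2 (20.5) and Ackr1 (14.95), and the tenth places were filled by Ccl8 (10.9) and Cx3cr1 (9.18), all in CPM per kilobase. From Ccl5 on, neighbours in this order overlapped in their ranges over samples. Ccl5 attracts T cells, Ccl9 and Ccl6 act through Ccr1, Ccr2 marks monocytes, Ccl8 is a monocyte attractant, Cx3cr1 is the fractalkine receptor of monocytes and macrophages, and Ackr1 is the Duffy antigen of erythroid cells and venules. The plot of levels in all samples shows that most members lay more than 10-fold below Cxcl14.

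**Figure D1:**
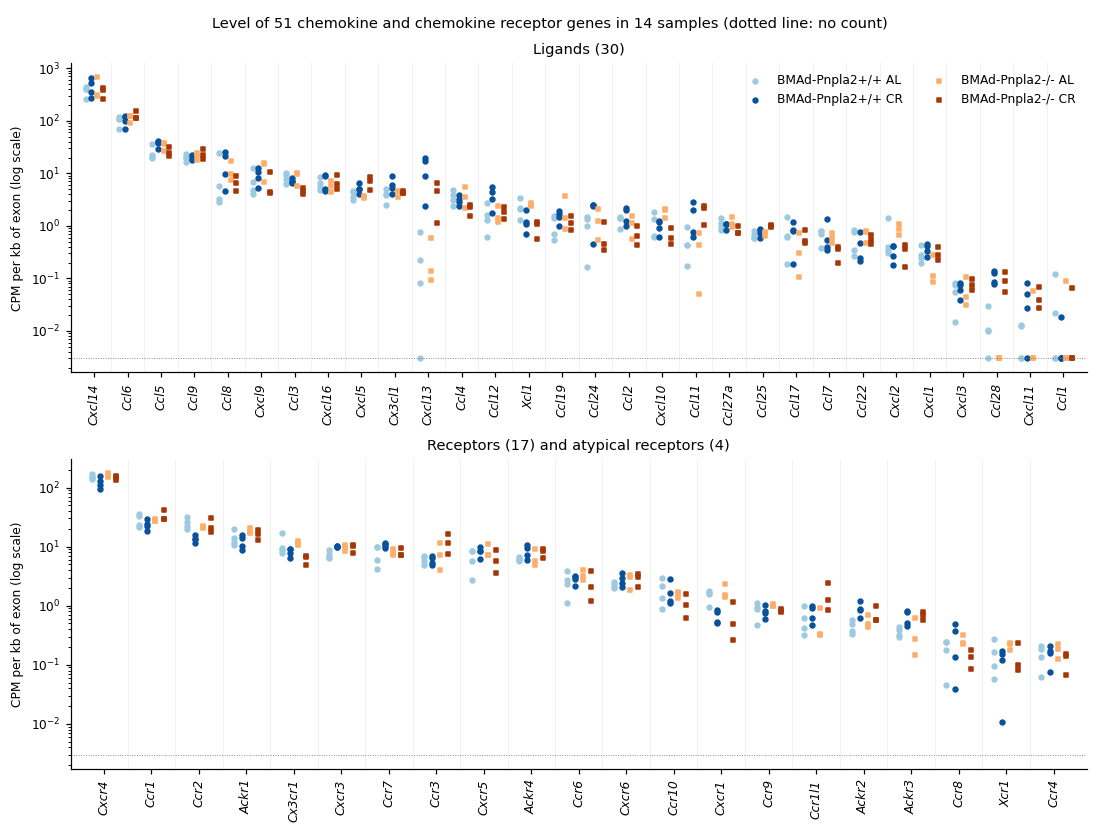
Level of 51 members in each of 14 samples, in CPM per kilobase of exon on a log axis, with ligands above and receptors below, ordered by mean level. Cxcl14 leads the ligands at 259 to 680, Cxcr4 leads the receptors at 96 to 173, and Cxcl13 shows the widest spread between the AL and CR samples.

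Of the 52 members, 47 passed the filter on low counts and were tested among 17671 genes, namely 26 ligands, 17 receptors and the 4 atypical receptors. The 5 that were not tested were Ccl1 (0 to 6 counts per sample), Ccl17 (1 to 15), Cxcl3 (1 to 7), Cxcl11 (0 to 7) and Ccr8 (1 to 12). Ccl1 is the ligand of Ccr8, Ccl17 a ligand of Ccr4, Cxcl3 a neutrophil attractant and Cxcl11 a ligand of Cxcr3. Family genes outside the matrix were at the floor of detection: Ccl20 and Ccl21a had 1 count in all 14 samples together, Cxcl17 had 2, Ccl26 had 3 and Cxcl15 had 19. Ccl21a, Ccl21b, Ccl19 and Ccl27a have near-identical copies in the mouse genome, and reads shared between copies may not have been counted, so their levels are uncertain. In the 11 stranded libraries, 55.2% of the Cxcl11 counts, 45.3% of the Xcr1 counts, 21.6% of the Ackr4 counts, 17.6% of the Ccl17 counts and 16.5% of the Ccr10 counts lay on the strand opposite to the gene. Exons of Cxcl11 and Ackr4 overlap those of a gene on the other strand (Gm2673 and Acad11), and reads of both genes may be mixed in those values. No such overlap was annotated for Xcr1, Ccl17 and Ccr10. Where the opposite-strand reads of any of these genes came from was not tested. Exons of Ccl25, Ccl27a, Cxcl10, Cxcl16, Cxcr5, Ccr9, Cx3cr1 and Xcl1 also overlap those of a gene on the other strand, and exons of Ackr1 and Ccr9 overlap a gene on the same strand.

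CR in BMAd-Pnpla2+/+ mice raised the B cell attractant Cxcl13 more than any other member. CR also raised the ligands Ccl28, Ccl12 and Cx3cl1, the atypical receptor Ackr2 and Cxcr3, a chemokine receptor of T cells. CR lowered receptors of myeloid cells, among them Ccr2 and Cxcr1. In all, 6 of 47 members tested were higher (12.8%), where 15.1% of all genes tested were higher, and 3 were lower (6.38%), where 10.9% of all genes were lower. The share of members called was thus not above that of all genes in either direction. Leaving out 1 library gave 1 higher member (without CR replicate 2), 2 (without AL or CR replicate 3), 4 (without AL replicate 2 or 4, CR replicate 1, or BMAd-Pnpla2-/- CR replicate 1 or 3) or up to 8 (without AL replicate 1 or CR replicate 4), and 2 to 4 lower members. Over all genes, such fits called from 1448 higher and 780 lower (without CR replicate 3) to 3244 and 2785 (without CR replicate 4). Of the 26 ligands 4 were higher and 0 lower, of the 17 receptors 1 was higher and 3 lower, and of the 4 atypical receptors 1 was higher. The median log2 fold change was 0.27 for ligands and -0.12 for receptors, beside 0.00281 for all genes tested. Calls are adjusted p-values under 0.05 from edgeR's quasi-likelihood test, adjusted over all genes tested.

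Cxcl13, made by stromal cells of B cell follicles, was nearly absent under AL. The 4 BMAd-Pnpla2+/+ AL samples had 0.869, 0, 0.257 and 0.0948 CPM, and the 4 CR samples had 10.3, 23, 19.8 and 2.69 CPM. Every CR sample lay above every AL sample, and replicate 4 was the lowest of the CR samples by a wide margin. The log2 fold change was 5.47 (SE 0.90, adjusted p 0.0026), and the ratio of the mean CPM was 45.7. In BMAd-Pnpla2-/- mice the AL samples had 0.109, 0.684 and 0.159 CPM and the CR samples 1.32, 5.31 and 7.55 CPM, again without overlap. The log2 fold change there was 3.87 (SE 1.05, adjusted p 0.034), and the difference between the genotypes' responses was not called (-1.60, SE 1.497, adjusted p 0.70). The call in BMAd-Pnpla2+/+ held with each library left out in turn, whereas the call in BMAd-Pnpla2-/- was lost without AL replicate 1 (adjusted p 0.121), AL replicate 3 (0.118), CR replicate 2 (0.078) or CR replicate 3 (0.108) of that genotype, and without the filter on low counts (0.112). The AL libraries had 0 to 18 Cxcl13 counts in BMAd-Pnpla2+/+ and 2 to 13 in BMAd-Pnpla2-/-. Cxcl13 therefore passed the low-count filter only through its CR samples, and its retained call is no separate support. Cxcr5, the Cxcl13 receptor of B cells, stood at 21.1 ± 9.08 CPM in BMAd-Pnpla2+/+ AL (n = 4) and 27.6 ± 5.27 in CR (n = 4), and its log2 fold change of 0.39 (SE 0.33, adjusted p 0.40) was within the spread. Cxcr5 in the other genotype had a log2 fold change of -0.51 (SE 0.39, adjusted p 0.42). Of 11 mature B and plasma cell markers, 0 were called in either genotype, and the list medians (log2) were 0.21 for the BMAd-Pnpla2+/+ and -0.18 for the BMAd-Pnpla2-/- response. Their sums ran from 1506 to 2604 CPM in AL and from 1937 to 3920 CPM in CR in the former and from 1773 to 2404 CPM and 1639 to 2473 CPM in the latter, and their part in the Cxcl13 values was not tested.

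Ccl28, a chemokine of mucosal epithelia that binds Ccr10 and Ccr3, was a gene of few reads. It had 0.145, 0, 0.0515 and 0.0474 CPM in BMAd-Pnpla2+/+ AL and 0.379, 0.684, 0.623 and 0.422 CPM in CR. The groups did not overlap, and the difference was called (adjusted p 0.0066), although only 76 counts were found in all 14 samples together. The AL libraries had 0 to 3 counts each and 5 in all, against 45 in CR, a ratio of 8.54 after scaling to library size, with an exact 95% interval of 3.40 to 27.6 that covers counting error only. No Ccl28 count was found in the 3 BMAd-Pnpla2-/- AL samples, and the CR samples of that genotype had 0.633, 0.263 and 0.441 CPM. Set against a floor of 3 counts per library, the mean of the latter was at least 2.73-fold higher (adjusted p 0.011). Ccl28 kept its call in the fits that left out 1 library and still tested it, 12 of 14 in each genotype. With 0 to 3 counts in each AL library, it passed the low-count filter only through its CR samples. Its retained calls are therefore no separate support. Its receptor Ccr10 stood at 3.18 ± 1.57 CPM in BMAd-Pnpla2+/+ AL and 2.89 ± 1.33 CPM in CR (n = 4 each), with a log2 fold change of -0.13 (SE 0.38, adjusted p 0.82). Ccl27a, the other Ccr10 ligand, had a log2 fold change of -0.10 (SE 0.22, adjusted p 0.77).

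Cxcr1, a chemokine receptor of neutrophils, was the third member called in both genotypes. It had 1.4, 2.69, 2.37 and 2.42 CPM in BMAd-Pnpla2+/+ AL and 1.28, 0.775, 0.756 and 1.16 CPM in CR. All CR samples lay under all AL samples, by a narrow gap between the lowest AL and the highest CR sample, and the log2 fold change was -1.16 (SE 0.38, adjusted p 0.038). In BMAd-Pnpla2-/- mice the values were 3.48, 2.26 and 2.12 CPM under AL and 1.74, 0.736 and 0.392 CPM under CR, without overlap, with a log2 fold change of -1.45 (SE 0.44, adjusted p 0.048). The BMAd-Pnpla2+/+ call was lost without AL replicate 2 (adjusted p 0.088), 3 (0.071) or 4 (0.075) or CR replicate 2 (0.097) or 3 (0.107). In BMAd-Pnpla2-/- it was lost in 9 of 14 such fits, held without BMAd-Pnpla2+/+ AL replicate 1, BMAd-Pnpla2+/+ CR replicate 2, 3 or 4 or BMAd-Pnpla2-/- CR replicate 1, and had an adjusted p up to 0.169, without BMAd-Pnpla2-/- CR replicate 3. The call in that genotype was also lost with its 2 groups fitted alone (adjusted p 0.075). Of the 8 mature neutrophil markers, 4 were lower in BMAd-Pnpla2+/+ CR (Il1b, S100a9, S100a8 and Csf3r) and 2 were lower in BMAd-Pnpla2-/- CR (Csf3r and Il1b). The summed neutrophil markers were 11058 to 16234 CPM in BMAd-Pnpla2+/+ AL and 6279 to 9974 CPM in CR, without overlap. In BMAd-Pnpla2-/- they were 12064 to 12294 CPM under AL and 8152 to 12969 CPM under CR, with CR replicate 1 above every AL sample. The part of these sums in the Cxcr1 values was not tested. Cxcr2, outside the rule, fell in parallel in BMAd-Pnpla2+/+, from 221 ± 24.4 to 125 ± 39.9 CPM (n = 4 each; log2 fold change -0.82, SE 0.21, adjusted p 0.014).

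Because these 3 genes were called in both genotypes, the 250 bases before their start sites are shown (RefSeq windows, GRCm38.p6, the build of the files). Capitals mark matches, on either strand, to GGGNNNNNCC, a pattern that many NF-kB sites share, to GAGGAA, the core of PU.1 sites, and to TATAAA, the TATA box.
Cxcl13, chr5:95956689-95956938, plus strand: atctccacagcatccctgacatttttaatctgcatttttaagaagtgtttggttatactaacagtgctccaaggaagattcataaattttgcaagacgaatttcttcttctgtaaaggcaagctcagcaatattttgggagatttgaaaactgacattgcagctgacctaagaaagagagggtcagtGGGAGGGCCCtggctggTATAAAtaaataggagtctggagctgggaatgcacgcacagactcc
Ccl28, chr13:119623569-119623818, plus strand: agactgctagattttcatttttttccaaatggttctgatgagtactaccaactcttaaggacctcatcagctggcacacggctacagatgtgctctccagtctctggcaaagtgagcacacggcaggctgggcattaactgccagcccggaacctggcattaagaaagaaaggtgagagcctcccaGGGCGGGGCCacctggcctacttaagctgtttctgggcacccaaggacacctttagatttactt
Cxcr1, chr1:74194632-74194881, minus strand: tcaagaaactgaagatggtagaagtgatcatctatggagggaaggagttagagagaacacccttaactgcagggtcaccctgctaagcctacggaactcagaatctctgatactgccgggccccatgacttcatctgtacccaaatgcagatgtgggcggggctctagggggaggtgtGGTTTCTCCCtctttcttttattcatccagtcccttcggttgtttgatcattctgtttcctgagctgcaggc
Each window held GGGNNNNNCC, which 45.8% of all 32851 windows of this length and those of 23 of the 39 members with a window also hold. In Cxcl13 it read on both strands from base -63 to -54 before the start site and was followed by TATAAA at -46 to -41. It lay at -64 to -55 in Ccl28 and, on the opposite strand, at -72 to -63 in Cxcr1. TATAAA was in 12.4% of all windows and in the windows of 13 of the 39 members for which one was given. GAGGAA was in 23.3% of all windows, in those of 10 of the 39 members and in none of the 3 shown.

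Ccr2, the receptor by which monocytes leave the marrow, showed the firmest fall among the receptors. It had 180, 211, 149 and 133 CPM in BMAd-Pnpla2+/+ AL and 76.6, 91.3, 107 and 89.7 CPM in CR. The groups were well apart, and the log2 fold change was -0.88 (SE 0.17, adjusted p 0.0048). In BMAd-Pnpla2-/- mice the AL samples had 144, 139 and 154 CPM and the CR samples 202, 142 and 117 CPM. These overlapped, and the log2 fold change was 0.08 (SE 0.20, adjusted p 0.83). The Ccr2 call in BMAd-Pnpla2+/+ mice held with each library left out in turn.

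The receptors Ccr1, Ccr3, Ccr1l1, Cxcr6, Ccr9 and Xcr1 were not called in BMAd-Pnpla2+/+ mice. Their log2 fold changes were -0.28 for Ccr1 (SE 0.18), -0.02 for the eosinophil receptor Ccr3 (SE 0.29), 0.35 for Ccr1l1 (SE 0.47), 0.28 for Cxcr6 (SE 0.22), -0.12 for Ccr9 (SE 0.22) and -0.35 for Xcr1 (SE 0.59). Of the 7 monocyte markers, 3 were lower in BMAd-Pnpla2+/+ CR (Ly6c2, -0.63, SE 0.13; Irf8, -0.48, SE 0.11; Ms4a6c, -0.35, SE 0.09). In BMAd-Pnpla2-/- CR Irf8 was the 1 called (-0.62, SE 0.13). The summed monocyte markers ran from 1554 to 1910 CPM in BMAd-Pnpla2+/+ AL and from 1359 to 1541 CPM in CR, and from 1669 to 1811 CPM and 1407 to 1552 CPM in BMAd-Pnpla2-/- AL and CR. Their part in the Ccr2 values was not tested.

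The 4 ligands of Ccr2 did not move as a set in BMAd-Pnpla2+/+ mice. Ccl12, a monocyte attractant, had 1.5, 0.686, 0.875 and 0.332 CPM under AL and 1.75, 2.42, 2.94 and 0.95 CPM under CR. CR replicate 4 fell within the AL range while the other 3 CR samples lay above it, and the log2 fold change was 1.25 (SE 0.42, adjusted p 0.044). Leaving out 1 library ended this call in 11 of 14 fits, all but those without BMAd-Pnpla2+/+ AL replicate 1, BMAd-Pnpla2+/+ CR replicate 4 or BMAd-Pnpla2-/- AL replicate 2, with an adjusted p up to 0.139 without CR replicate 3. So did fitting without the BMAd-Pnpla2-/- CR samples (0.0616 to 0.0891 over the fits without them and with the 2 groups alone). Ccl2 (log2 fold change 0.28, SE 0.35), Ccl7 (-0.03, SE 0.43) and Ccl8 (0.73, SE 0.66) were not called. The 6 ligand genes that neighbour each other on chromosome 11 (82035571 to 82305690) include these 4 together with Ccl1 and the eosinophil attractant Ccl11. Ccl11 had a log2 fold change of 1.67 (SE 0.63, adjusted p 0.066), and DESeq2 called it (adjusted p 0.032).

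Cx3cl1, fractalkine, which is held on the surface of endothelial and stromal cells, had 15.1, 19.8, 9.83 and 16.1 CPM in BMAd-Pnpla2+/+ AL and 20.7, 34.9, 23.6 and 16.2 CPM in CR. CR replicate 4 was within the AL range, and the log2 fold change was 0.65 (SE 0.23, adjusted p 0.049). This call lay at the threshold: it was lost in 11 of 14 fits that left out 1 library, all but those without BMAd-Pnpla2+/+ AL replicate 2, BMAd-Pnpla2+/+ CR replicate 4 or BMAd-Pnpla2-/- AL replicate 1, with an adjusted p up to 0.168 without CR replicate 2, and under 6 of 9 other settings, among them DESeq2's median-ratio scaling within edgeR. Its receptor Cx3cr1 had a log2 fold change of -0.40 (SE 0.21, adjusted p 0.17). Of 11 endothelial markers, 7 were higher (led by Plvap, 1.10, SE 0.27) and 1 was lower (Vwf, -0.84, SE 0.25) in BMAd-Pnpla2+/+ CR, and 0 were called in BMAd-Pnpla2-/- CR. Their sums ran from 1049 to 1412 CPM in BMAd-Pnpla2+/+ AL and from 1191 to 2271 CPM in CR, and their part in the Cx3cl1 values was not tested.

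Cxcr3, the receptor of activated T cells and NK cells, had 15, 11.1, 11.7 and 13 CPM in BMAd-Pnpla2+/+ AL and 17.2, 17.6, 17.8 and 16.8 CPM in CR. The CR samples were tightly grouped above all AL samples, and the log2 fold change was 0.45 (SE 0.13, adjusted p 0.024). The call was lost without AL replicate 2 (adjusted p 0.062) or 3 (0.083) or CR replicate 1 (0.051), 2 (0.051) or 3 (0.059), and without the filter on low counts (0.053). Its ligands Cxcl9 (log2 fold change 0.37, SE 0.42) and Cxcl10 (-0.16, SE 0.36) were not called. Ccl5, which T cells make, had 21.6, 18.8, 20.1 and 34.3 CPM in AL and 39.4, 36.2, 27.8 and 38 CPM in CR, and at a log2 fold change of 0.57 (SE 0.20, adjusted p 0.050) it lay just outside the threshold. The T cell homing receptor Ccr7 had a log2 fold change of 0.54 (SE 0.23, adjusted p 0.090), and its ligand Ccl19 one of 0.52 (SE 0.44, adjusted p 0.40). Of 13 T and NK cell markers, 6 were higher in BMAd-Pnpla2+/+ CR (led by Cd8a, 1.37, SE 0.22, and Cd3e, 1.13, SE 0.16) and 1 was lower (Nkg7, -0.51, SE 0.13). Summed, they ran from 209 to 286 CPM in AL and from 295 to 354 CPM in CR, without overlap, and their part in the Cxcr3 and Ccl5 values was not tested.

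Ackr2, a scavenger of inflammatory CC chemokines, had 1.79, 1.53, 1.03 and 1.18 CPM in BMAd-Pnpla2+/+ AL and 2.7, 3.74, 2.67 and 1.95 CPM in CR. The groups did not overlap, and the log2 fold change was 0.998 (SE 0.28, adjusted p 0.021). It lost the call without AL replicate 3 (adjusted p 0.067) or 4 (0.053) or CR replicate 2 (0.068). The value in BMAd-Pnpla2-/- mice was 0.40 (SE 0.32, adjusted p 0.45). Ackr3, which clears Cxcl12, had a log2 fold change of 0.85 (SE 0.35, adjusted p 0.088) in BMAd-Pnpla2+/+ and 0.99 (SE 0.41, adjusted p 0.13) in BMAd-Pnpla2-/- mice. Ackr4, which clears Ccl19 and Ccl25, had 0.44 (SE 0.20, adjusted p 0.12) and 0.30 (SE 0.23, adjusted p 0.43), and Ackr1 had -0.21 (SE 0.21, adjusted p 0.47) and -0.18 (SE 0.25, adjusted p 0.67). Cxcl12, outside the rule and far above all members at 4501 ± 477 CPM in BMAd-Pnpla2+/+ AL and 6235 ± 1771 CPM in CR (n = 4 each), was not called (0.47, SE 0.22, adjusted p 0.12), and neither was Cxcr4 (-0.34, SE 0.13, adjusted p 0.064). DESeq2 did call Cxcr4 (adjusted p 0.038).

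**Figure D2:**
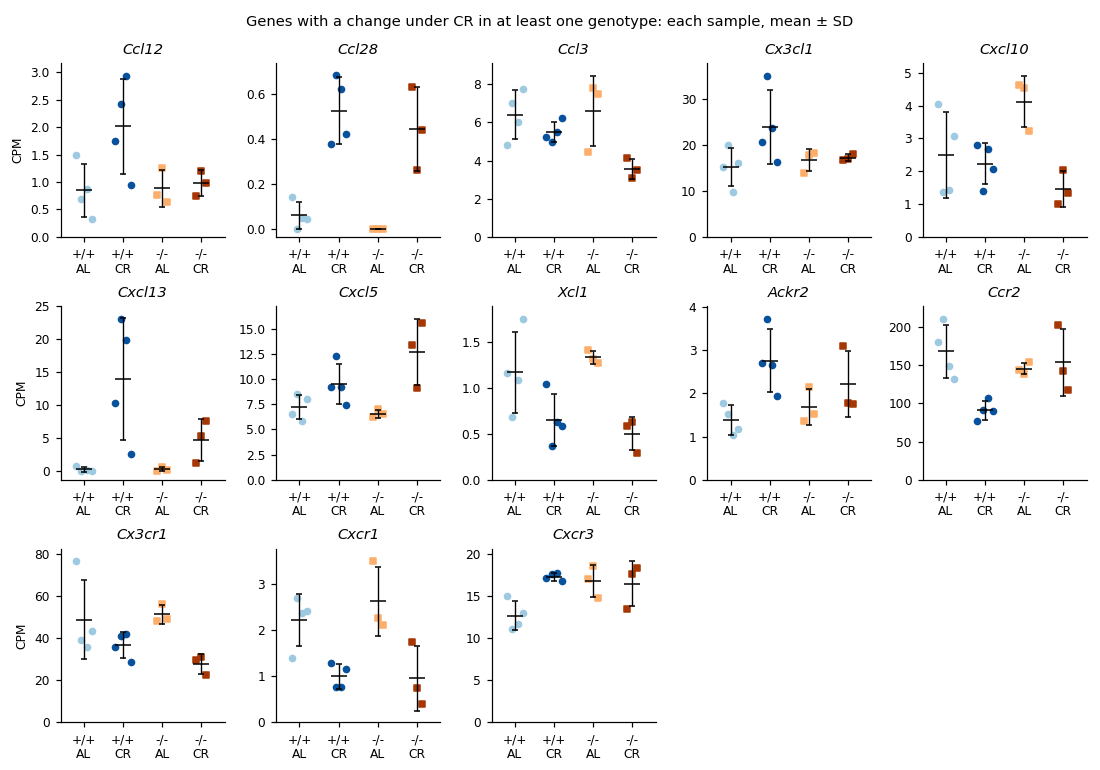
CPM of 13 members called under CR in at least 1 genotype, by group, with a point for each sample and the mean ± SD. Cxcl13 rises from under 1 CPM in all AL samples to 2.69 to 23 CPM in BMAd-Pnpla2+/+ CR and 1.32 to 7.55 CPM in BMAd-Pnpla2-/- CR, while Ccr2 lies at 76.6 to 107 CPM in BMAd-Pnpla2+/+ CR and at 117 CPM or more in every other sample.

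In BMAd-Pnpla2-/- mice CR raised Cxcl13, Ccl28 and the neutrophil attractant Cxcl5, and lowered the ligands Cxcl10, Xcl1 and Ccl3 and the receptors Cx3cr1 and Cxcr1. This was 3 of 47 members higher (6.38%), where 6.04% of all genes tested were higher, and 5 lower (10.6%), where 5.57% of all genes were lower. Of the 26 ligands 3 were higher and 3 lower, of the 17 receptors 0 were higher and 2 lower, and of the 4 atypical receptors 0 were called. The median log2 fold change was -0.34 for ligands, with Ccl28 at its bound or not, and -0.26 for receptors, beside 0.0471 for all genes. The split of all calls in this comparison depended on scaling, with 1067 higher and 985 lower here, 913 and 1267 with median-ratio scaling, and 1396 and 687 with total counts alone, where the median of all genes shifted to 0.12. Leaving out BMAd-Pnpla2-/- AL replicate 1 left 1 member higher and 1 lower, AL replicate 2 left 5 and 0, AL replicate 3 left 1 and 0, CR replicate 1 left 3 and 2, CR replicate 2 left 2 and 0, and CR replicate 3 left 1 and 0. Over all genes, these fits called from 121 higher and 122 lower (without CR replicate 3) to 886 and 1039 (without AL replicate 2). With total counts alone 3 members were higher and 3 lower, and the ligand and receptor medians kept their signs in both genotypes under each of these scalings.

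Cxcl5 had 6.2, 7 and 6.5 CPM in BMAd-Pnpla2-/- AL and 13.4, 9.1 and 15.6 CPM in CR. The groups were clearly apart, and the log2 fold change was 0.95 (SE 0.22, adjusted p 0.019). It lost the call without AL replicate 1 (adjusted p 0.088) or 3 (0.075) or CR replicate 3 (0.093). In BMAd-Pnpla2+/+ mice the log2 fold change was 0.40 (SE 0.19, adjusted p 0.13). The other ligands of Cxcr2 that were tested, Cxcl1 (0.89, SE 0.48, adjusted p 0.24) and Cxcl2 (-1.46, SE 0.57, adjusted p 0.11), were not called in BMAd-Pnpla2-/- mice.

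Cxcl10, an interferon-induced ligand of Cxcr3, had 4.62, 4.53 and 3.23 CPM in BMAd-Pnpla2-/- AL and 1, 2.05 and 1.32 CPM in CR, without overlap. The log2 fold change was -1.496 (SE 0.42, adjusted p 0.037). Cxcl9, its neighbour on chromosome 5, had 47.7, 44.5 and 20.4 CPM in AL and 13.2, 31.6 and 12.9 CPM in CR. These overlapped, and the log2 fold change of -0.96 (SE 0.49, adjusted p 0.21) was not called. Ccl3, a macrophage inflammatory protein, had 4.46, 7.79 and 7.51 CPM in AL and 4.11, 3.1 and 3.48 CPM in CR, with a log2 fold change of -0.88 (SE 0.23, adjusted p 0.030) and 11.4% of its counts in stranded libraries on the opposite strand. With the counts of the deposited matrix Ccl3 was not called (adjusted p 0.059). Ccl4, beside it on chromosome 11, had a log2 fold change of -0.82 (SE 0.36, adjusted p 0.14). Xcl1, made by NK cells and CD8 T cells, had 1.41, 1.32 and 1.27 CPM in AL and 0.58, 0.631 and 0.294 CPM in CR, with a log2 fold change of -1.40 (SE 0.43, adjusted p 0.049). Of the 13 T and NK cell markers, 3 were higher and Nkg7 was lower there (-0.50, SE 0.15, adjusted p 0.045), their sums ran from 289 to 302 CPM in AL and from 254 to 343 CPM in CR, and their part in the Xcl1 values was not tested. The Xcl1 receptor Xcr1 had a log2 fold change of -0.60 (SE 0.66, adjusted p 0.59). Cx3cr1 had 48.2, 56.1 and 49.2 CPM in AL and 29.7, 31.2 and 22.3 CPM in CR, with a log2 fold change of -0.88 (SE 0.25, adjusted p 0.038).

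None of these 4 falls was held by every fit that left out 1 library. Cxcl10 and Cx3cr1 lost the call without any 1 of the 6 BMAd-Pnpla2-/- samples, with adjusted p of 0.052 to 0.128 and of 0.061 to 0.142. Ccl3 lost it without AL replicate 2 (0.062) or 3 (0.091) or CR replicate 2 (0.101) or 3 (0.104) of that genotype. Xcl1 lost it in 10 of 14 fits, all but those without BMAd-Pnpla2+/+ AL replicate 2 or 4 or BMAd-Pnpla2+/+ CR replicate 1 or 2, with an adjusted p up to 0.186 without BMAd-Pnpla2-/- CR replicate 3. Among other settings, Cxcl10 lost the call with the replicate block (adjusted p 0.057) and Cx3cr1 with total counts alone (0.053). Xcl1 lost it with each of these and without the filter on low counts (up to 0.059). In BMAd-Pnpla2+/+ mice the log2 fold changes were -0.16 for Cxcl10 (SE 0.36), -0.22 for Ccl3 (SE 0.20), -0.84 for Xcl1 (SE 0.36) and -0.40 for Cx3cr1 (SE 0.21), and none was called. Skeletal muscle markers, which bulk plugs can pick up, summed to 9.91, 34.7 and 115 CPM in BMAd-Pnpla2-/- CR replicates 1 to 3 and to 6.63 to 25.9 CPM in the other 11 samples, and their part in these values was not tested.

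**Figure D3:**
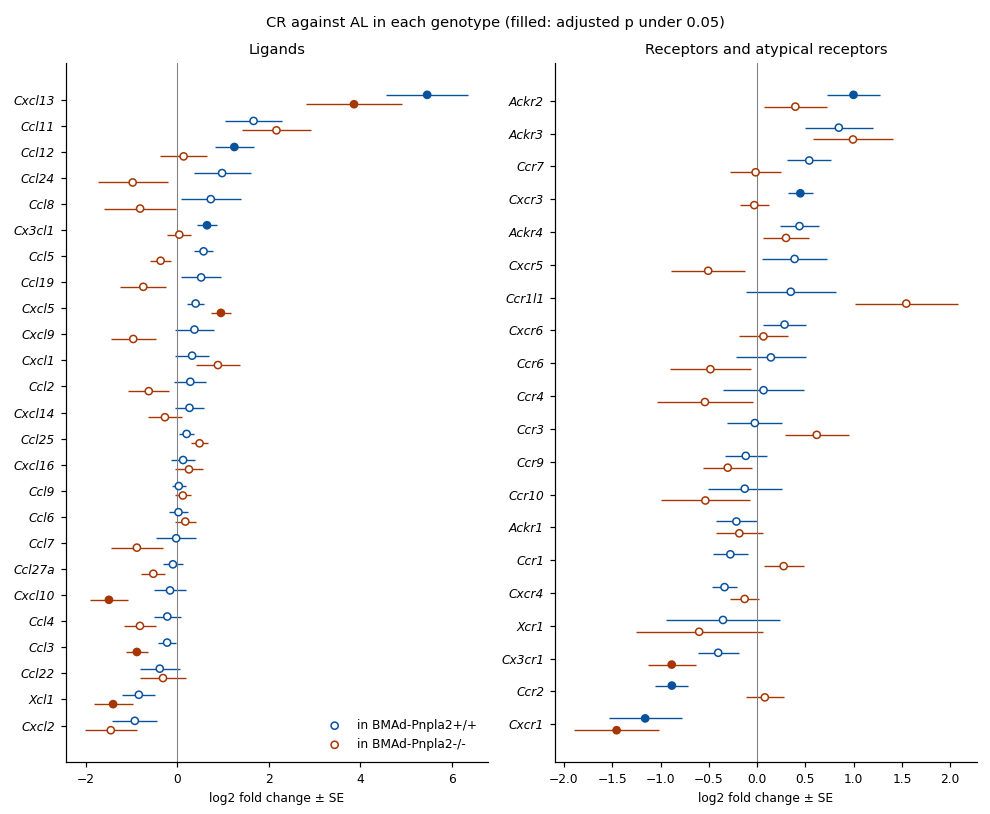
Log2 fold change ± SE of CR against AL for 25 ligands and 20 of the receptors and atypical receptors tested, in BMAd-Pnpla2+/+ (blue) and BMAd-Pnpla2-/- (brown), with filled points at adjusted p under 0.05. Cxcl13 is filled in both genotypes at 5.47 and 3.87, Ccr2 is filled for BMAd-Pnpla2+/+ and open for BMAd-Pnpla2-/-, and Ccl28 is not drawn because its AL samples had 0 to 3 counts each.

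The calls of the 2 genotypes shared 3 members, Cxcl13, Ccl28 and Cxcr1, each changed in the same direction. These were 33.3% of the 9 called in BMAd-Pnpla2+/+ and 37.5% of the 8 called in BMAd-Pnpla2-/-. Over all genes the calls shared were 25.6% of those in BMAd-Pnpla2+/+ and 57.5% of those in BMAd-Pnpla2-/-. A test of the difference between the responses called 0 of 47 members and 0% of all genes (edgeR; 5 members and 1836 genes at an unadjusted p under 0.05). DESeq2 called 31 and 27 genes and 0 members. Ccr2 had the smallest p among the members (difference 0.96, SE 0.26, unadjusted p 0.0025, adjusted p 0.34), followed by Ccl5 (-0.94, SE 0.31, unadjusted p 0.0088, adjusted p 0.34). With the counts of the deposited matrix, which are strand-specific in 11 libraries and not in the other 3, Ccr2 was called (difference 0.99, adjusted p 0.047).

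Under AL no member differed between the genotypes. The count was 0 of 47, as it was for 0% of all genes (edgeR; 2 members and 700 genes at an unadjusted p under 0.05; DESeq2 called 0 members and 18 genes). The genotype difference (BMAd-Pnpla2-/- over BMAd-Pnpla2+/+) had a median log2 value of 0.11 for ligands and 0.24 for receptors, beside -0.00823 for all genes. Cxcr3 was nearest, with 15, 11.1, 11.7 and 13 CPM in BMAd-Pnpla2+/+ AL and 17.1, 18.6 and 14.8 CPM in BMAd-Pnpla2-/- AL (log2 fold change 0.41, SE 0.14, unadjusted p 0.011, adjusted p 1). The interferon-induced Cxcl9 (0.81, SE 0.45) and Cxcl10 (0.72, SE 0.38) and the Ccr7 ligand Ccl19 (0.91, SE 0.47) had the highest fitted values among ligands and were not called. For Ccl28 both groups were at or under the floor of 3 counts, and no fold is given.

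Under CR the values of BMAd-Pnpla2-/- mice, in libraries of the other kind, lay under those of BMAd-Pnpla2+/+ mice for 20 of 26 ligands and above them for 9 of 17 receptors, and none passed the test. The count was 0 of 47, where 0.0113% of all genes were called (edgeR; 10 members and 4095 genes at an unadjusted p under 0.05). The median log2 fold change was -0.37 for ligands and 0.05 for receptors, beside -0.0114 for all genes. Ccr2 (log2 fold change 0.76, SE 0.18, unadjusted p 0.0011, adjusted p 0.065) and Ccr3 (0.99, SE 0.30, unadjusted p 0.0064, adjusted p 0.10) were nearest to the threshold, and in each the 2 groups did not overlap. Ccr3 had 17.2, 16.1, 23.1 and 21.4 CPM in BMAd-Pnpla2+/+ CR and 24.3, 53.1 and 38 CPM in BMAd-Pnpla2-/- CR. DESeq2 called both (adjusted p 0.0099 for Ccr2 and 0.028 for Ccr3), and so did edgeR on the counts of the deposited matrix (0.010 and 0.045). Leaving out BMAd-Pnpla2+/+ CR replicate 4 called 3 members, beside 1156 higher and 956 lower of all 17618 genes tested. Leaving out BMAd-Pnpla2+/+ AL replicate 2 called 1 member, beside 150 higher and 90 lower of 17603 genes. With all samples 1 gene was higher and 1 lower.

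The ligands of Ccr2 and Ccr3 listed next had negative values in this comparison, apart from Ccl11, and none was called. The log2 fold changes were -1.19 for Ccl2 (SE 0.41, adjusted p 0.12), -1.02 for Ccl7 (SE 0.52), -1.21 for Ccl8 (SE 0.74), -1.05 for Ccl12 (SE 0.46), -1.59 for the eosinophil attractant Ccl24 (SE 0.72) and 0.23 for Ccl11 (SE 0.61). Eosinophil and basophil markers summed to 149 to 393 CPM in BMAd-Pnpla2+/+ CR and to 224 to 345 CPM in BMAd-Pnpla2-/- CR, and their part in the Ccr3 values was not tested. The log2 fold changes were -0.49 for Ccl5 (SE 0.22), -0.53 for Ccl4 (SE 0.34), -0.62 for Ccl3 (SE 0.22) and -0.43 for Ccr7 (SE 0.25), and none was called. Cxcr3 and Cxcr6, also of T cells, overlapped between the genotypes under CR. Cxcr3 stood at 17.3 ± 0.463 CPM in BMAd-Pnpla2+/+ and 16.5 ± 2.67 CPM in BMAd-Pnpla2-/-. Cxcr6 stood at 5.28 ± 1.23 and 5.54 ± 1.31 CPM. The inflammatory receptor Ccr1 lay above 0 without a call (0.52, SE 0.19, adjusted p 0.14).

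**Figure D4:**
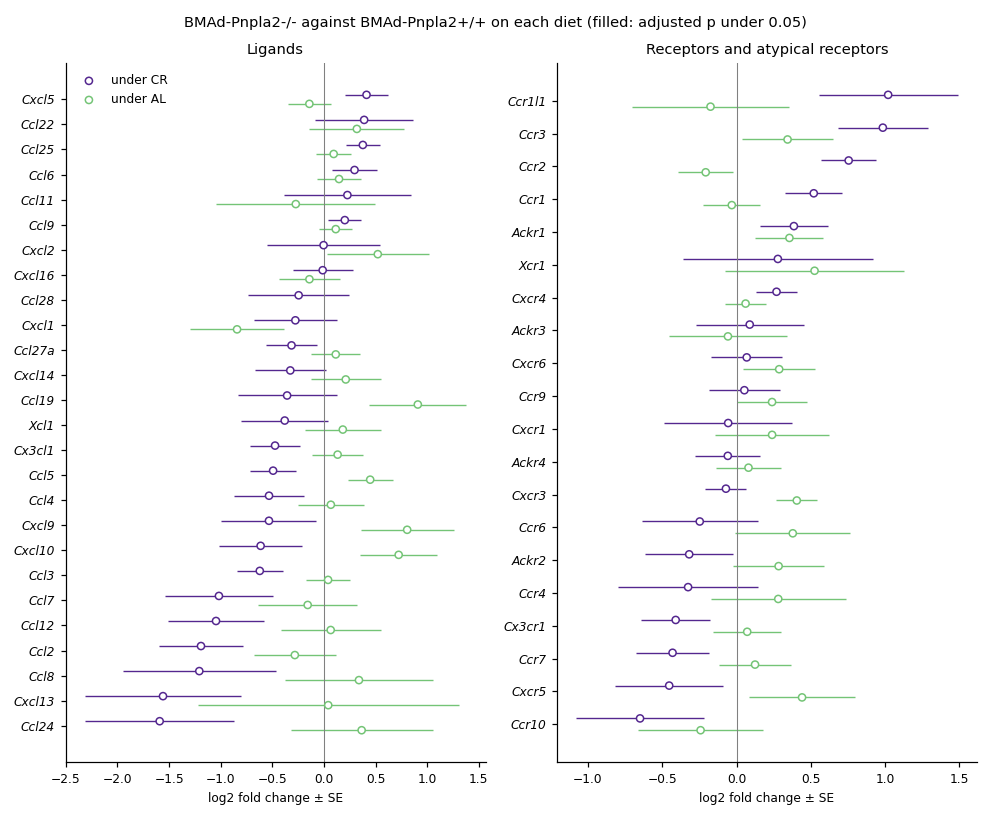
Difference between the genotypes (BMAd-Pnpla2-/- over BMAd-Pnpla2+/+, log2 fold change ± SE) for the 26 ligands and 20 of the receptors and atypical receptors tested, under CR (purple) and under AL (green). No point is filled, since no member passed an adjusted p of 0.05, and Ccl28 is not drawn under AL because both groups were at or under 3 counts.

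Other textbook pairs gave no call in any comparison. Ccr4 (log2 fold change 0.07, SE 0.42) and its ligand Ccl22 (-0.38, SE 0.44) in BMAd-Pnpla2+/+ mice were near or below 0, and in BMAd-Pnpla2-/- mice they were -0.54 (SE 0.50) and -0.31 (SE 0.49). Ccr9 and its ligand Ccl25, known from the thymus and gut, had -0.12 (SE 0.22) and 0.20 (SE 0.16) in BMAd-Pnpla2+/+ and -0.30 (SE 0.25) and 0.49 (SE 0.18, adjusted p 0.092) in BMAd-Pnpla2-/- mice. Cxcr6, a chemokine receptor of T cells, and its ligand Cxcl16 had 0.28 (SE 0.22) and 0.13 (SE 0.27) in BMAd-Pnpla2+/+ mice. In BMAd-Pnpla2-/- mice they had 0.07 (SE 0.26) and 0.25 (SE 0.31). Ccr6, a chemokine receptor of B and T cells, had 0.14 (SE 0.36) and -0.48 (SE 0.42) in the same order of genotypes. Its ligand Ccl20 was at 1 count in all. The abundant Cxcl14 (0.27, SE 0.31, and -0.27, SE 0.36), Ccl6 (0.02, SE 0.20, and 0.17, SE 0.23), Ccl9 (0.03, SE 0.15, and 0.12, SE 0.17) and Ccr1 (-0.28, SE 0.18, and 0.28, SE 0.21) were not called in either genotype.

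Of 25 G proteins and effectors that carry the signal of chemokine receptors, 10 were lower and 0 higher under CR in BMAd-Pnpla2+/+ mice, where 10.9% of all genes tested were lower. They were led by the integrin activator Fermt3 (-0.55, SE 0.15), the small GTPase Rac2 (-0.50, SE 0.14), the exchange factor Vav1 (-0.47, SE 0.10) and the integrin subunit Itgb2 (-0.46, SE 0.12). The other genotype had 8 lower and 0 higher, where 5.57% of all genes were lower, led by Rac2 (-0.72, SE 0.16), Fermt3 (-0.69, SE 0.17), Gnai2 (-0.59, SE 0.13) and Itgal (-0.52, SE 0.10). The list median was -0.25 and -0.31, beside 0.00281 and 0.0471 for all genes. Among 14 genes tested that desensitize chemokine receptors, 4 were lower in BMAd-Pnpla2+/+ (Rgs2, Grk2, Rgs10 and Rgs19) and 3 in BMAd-Pnpla2-/- (Rgs2, Rgs19 and Grk2), and 0 were higher. These genes are expressed across leukocytes. The neutrophil marker sums were lower under CR without overlap in BMAd-Pnpla2+/+ and overlapped between the diets in BMAd-Pnpla2-/-, and their part in these values was not tested.

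Among 11 inducers of homeostatic chemokines in lymphoid stroma, the lymphotoxin family member Tnfsf14 (-0.96, SE 0.22) and Tnf (-0.57, SE 0.16) were lower in BMAd-Pnpla2+/+ CR, and 0 were called in BMAd-Pnpla2-/- CR. Of 15 inducers of inflammatory chemokines tested, 3 were higher (Il1r1, Ifngr1 and Nfkbia) and 3 lower (Il1b, -1.27, SE 0.23; Myd88; Il17ra) in BMAd-Pnpla2+/+, and 2 were lower in BMAd-Pnpla2-/- (Il1b, -1.01, SE 0.26; Irf1, -0.55, SE 0.13). Of 14 proteoglycans that bind chemokines at the cell surface and in matrix, 5 were higher in BMAd-Pnpla2+/+ (Hspg2, 1.65, SE 0.34; Dcn, 1.30, SE 0.31; Gpc4, 1.02, SE 0.19; Bgn, 0.94, SE 0.29; Sdc2 as well) and Cd44 was lower. The other genotype had 3 higher (Vcan, Sdc2 and Gpc4). Of the 5 family members outside the symbol rule, the platelet chemokines Ppbp (-1.08, SE 0.23) and Pf4 (-0.72, SE 0.21) were lower with Cxcr2 in BMAd-Pnpla2+/+, and 0 were called in BMAd-Pnpla2-/-. Of all genes tested, 15.1% were higher and 10.9% lower in BMAd-Pnpla2+/+ CR, and 6.04% and 5.57% in BMAd-Pnpla2-/- CR. No test of a list as a whole was made.

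The marker lists also moved with CR. Their counts, here, above and below, stand beside the shares of all genes tested. These were 15.1% higher and 10.9% lower in BMAd-Pnpla2+/+ CR, and 6.04% and 5.57% in BMAd-Pnpla2-/- CR. Adipocyte markers were higher in 10 of 10 genes in BMAd-Pnpla2+/+ CR and in 9 of 10 in BMAd-Pnpla2-/- CR, and their sums ran from 1314 to 3171 CPM in BMAd-Pnpla2+/+ AL, 4088 to 10150 CPM in CR, 619 to 1434 CPM in BMAd-Pnpla2-/- AL and 2675 to 4664 CPM in CR. BMAd-Pnpla2+/+ CR replicate 4, lowest of its group for Cxcl13, Ccl12, Cx3cl1 and Ackr2, was also lowest for the adipocyte sum and highest for the erythroid sum (47720 CPM, against 9858 to 30436 CPM in the other 3). Without it 8 members were higher and 4 lower in BMAd-Pnpla2+/+ mice, beside 3244 higher and 2785 lower of all 17618 genes tested. With all samples 2668 genes were higher and 1934 lower. Of 10 stromal markers of the reticular cells that make Cxcl12, 5 were higher in BMAd-Pnpla2+/+ and 2 in BMAd-Pnpla2-/- (Kitl and Esm1), and of 10 macrophage markers 4 and 1 were higher (Cd163 in both). Of 6 lymphoid stroma and high endothelium markers tested, Madcam1 was higher (4.71, SE 0.54) and Tnfsf13b lower in BMAd-Pnpla2+/+, and Tnfsf13b was lower in BMAd-Pnpla2-/-. Glycam1 and Chst4, the other 2 genes of that list, had 0 counts in all samples, and mature B and plasma cell markers were not called. The part of either list in the Cxcl13 values was not tested.

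Precursor B cell markers were lower in 7 of 12 genes in each genotype, eosinophil and basophil markers in 3 of 8 genes in each (Epx, Prg2 and Siglecf), and neutrophil precursor markers in 6 of 8 and 0 of 8. Megakaryocyte markers were lower in 4 of 7 genes in BMAd-Pnpla2+/+ and 0 in BMAd-Pnpla2-/-, erythroid markers in 0 of 8 in each, and dendritic cell markers in 3 of 8 and 1 of 8, with Flt3 higher in each. Osteoblast markers were higher in 4 of 6 genes tested in BMAd-Pnpla2+/+ and 1 in BMAd-Pnpla2-/-, T and NK cell markers in 6 and 3 of 13, with Nkg7 lower in each, and 0 of 4 skeletal muscle markers tested were called. Beyond the values set beside each gene above, the part of these shifts in the members' values was not tested.

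**Figure D5:**
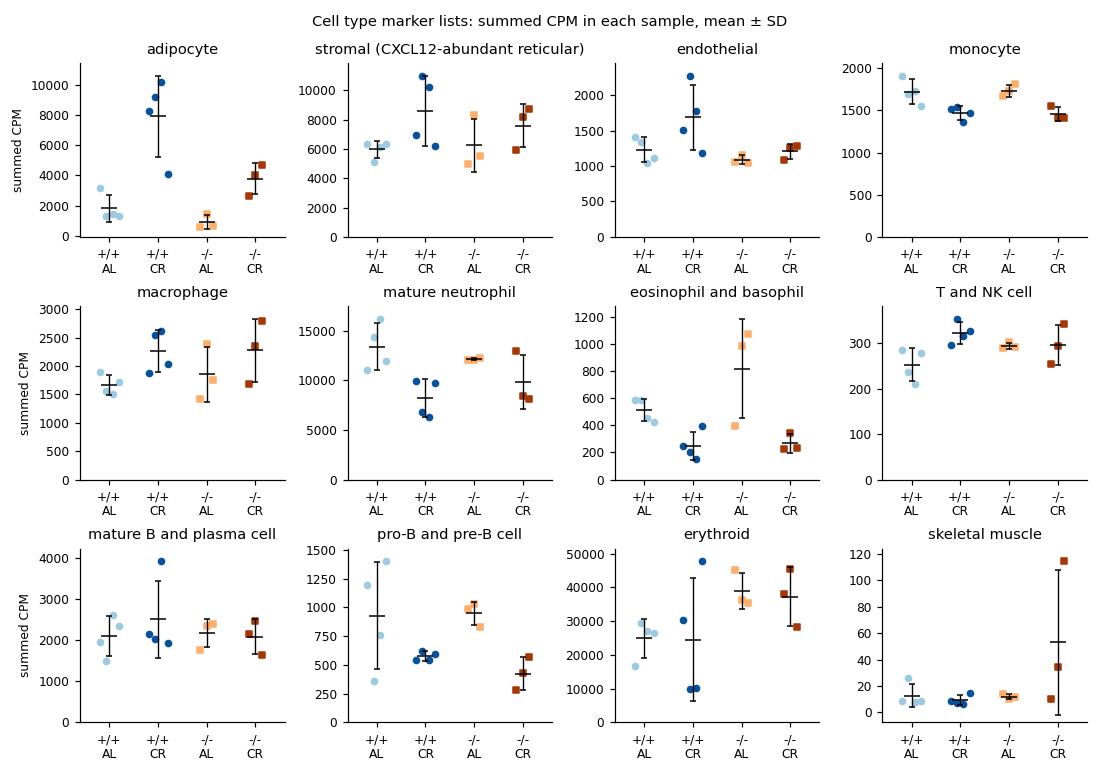
Summed CPM of 12 cell type marker lists in each sample by group, with the mean ± SD. Adipocyte sums in all CR samples exceed those of the AL samples of the same genotype, and monocyte sums in all CR samples lie below them. Neutrophil sums are lower in BMAd-Pnpla2+/+ CR than in AL and overlap between the diets in BMAd-Pnpla2-/-. A BMAd-Pnpla2-/- CR sample has a skeletal muscle sum of 115 CPM.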

How the data were processed

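Processed counts of 14 samples, each RNA of 2 pooled mice, were analysed. The authors checked read pairs with FastQC 0.11.9, aligned them to mm10 with STAR at default settings and deposited raw counts per gene for each sample (without strand, first strand, second strand) and as a matrix. The matrix holds reverse-strand counts in 11 samples and unstranded counts in the 3 BMAd-Pnpla2-/- CR samples, so the unstranded counts were used. The annotation release is not given in the sources used here, and exon lengths came from GENCODE M21, which holds the identifier and version of 51 of the 52 members. Between 21.1% and 25.6% of read pairs were not on 1 gene and stayed out of library sizes.

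Counts were scaled by TMM, filtered with filterByExpr over the 4 groups and fitted as 4 groups in 1 model with edgeR 4.0.16 (R 4.3.3, robust quasi-likelihood). The p-values were adjusted by Benjamini and Hochberg over 17671 genes, and a call is an adjusted p under 0.05. CPM divide by TMM-scaled library size. Comparisons were CR against AL in each genotype, BMAd-Pnpla2-/- against BMAd-Pnpla2+/+ on each diet, and the difference between the CR responses. In simulated data with known changes the fit called 93% of 4-fold and 61% of 2-fold changes for BMAd-Pnpla2+/+ and 89% and 62% for BMAd-Pnpla2-/-. The changed genes were drawn only from those above a minimum mean count. Whole libraries were not made to differ in composition. These shares therefore do not hold for members of few reads. Replicates of a group differed by more than sampling noise. Separate pools of mice are assumed, and p-values measure the spread between them.

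Alternatives were DESeq2 1.42.0, other scalings, the deposited matrix, no filter on low counts, subsets of samples, a fold threshold and a replicate block. Genes named were Pnpla2, every member called, the 10 members of highest level per kilobase, tested ligands and receptors of textbook pairs, Ackr1 to Ackr4 and, of 6 pathway lists, up to 4 called genes, with 17 marker lists given by counts. Values of 1 member are not reported here, and the counts include it. The members and lists were chosen with earlier results of these data known.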

Additional observations from a re-analysis of the deposited data

Results flagged for a closer look

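In groups of 4, a sample was set apart where its gap to the nearest other sample exceeded the 95% critical value of Dixon's test. Of 94 such group values of members tested, 5 (5.32%) were set apart, about the 1 in 20 that chance gives. Ccl8, a monocyte attractant, had 12.6 CPM in BMAd-Pnpla2+/+ AL replicate 1 and 1.47 to 2.99 CPM in the other 3 samples, and that library also had the highest adipocyte marker sum of its group (3171 CPM, against 1314 to 1475 CPM). Cxcl2, a neutrophil attractant, had 2.88 CPM in BMAd-Pnpla2+/+ AL replicate 3 against 0.633 to 0.821 CPM, and Ccl2 had 0.978 CPM in the same sample against 1.64 to 1.71 CPM. The eosinophil attractant Ccl24 had 0.580 CPM in BMAd-Pnpla2+/+ CR replicate 4 against 3.10 to 3.27 CPM, and Ccl27a had 1.95 CPM in the same sample against 2.55 to 2.58 CPM. These last 2 counted 11 and 37 reads.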

How the results depend on the processing

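The calls were sensitive to the setting in number. In BMAd-Pnpla2+/+ mice, 3 members were higher and 1 lower under CR with an absolute log2 fold change over 1 as well, and 3 were higher with the 2 groups alone and without the BMAd-Pnpla2-/- CR samples, on unstranded or on reverse-strand counts. Ccl28 was left out by the low-count filter there. In BMAd-Pnpla2-/- mice, 5 members were higher with DESeq2 (Ccl11 and Ccr1l1 added), and 3 were lower with a log2 fold change over 1 as well, with total counts alone, and with the replicate block. For the genotypes under CR, 2 members (Ccr2 and Ccr3) were called by DESeq2 and 2 with the counts of the deposited matrix, which also called 1 member (Ccr2) for the difference between the responses. With 1 library left out, the members higher ran from 1 to 8 and lower from 2 to 4 in BMAd-Pnpla2+/+ mice, higher from 1 to 5 and lower from 0 to 5 in BMAd-Pnpla2-/- mice, called from 0 to 3 between the genotypes under CR, and 0 to 0 in the other comparisons. Over all genes, the calls between the genotypes under CR reached 1156 higher and 956 lower, without BMAd-Pnpla2+/+ CR replicate 4. The causes were not tested. Over all genes, the replicate block called 2408 higher and 1845 lower in BMAd-Pnpla2+/+ mice. Samples of the same replicate number had a correlation over 0.1 in 8 of 19 pairs (median -0.013, range -0.40 to 0.41). The median of the 54 other pairs was 0.0029. These values do not settle whether the numbers pair the samples. The replicate block called 6 higher and 4 lower members in BMAd-Pnpla2+/+ mice, 3 higher in BMAd-Pnpla2-/- mice, and 0 in the remaining comparisons. No called member reversed its direction under any alternative that gave it a value. Over all genes DESeq2 called 652 higher and 956 lower between the genotypes under CR, and the counts of the deposited matrix 1190 and 1261, against 1 and 1 in the model used here. Members under about 1 CPM, such as Ccl28, Xcl1 and Ccl7, rest on few reads, and smaller changes in them were not detectable at this depth.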
